A study of Mus musculus with 8 samples.

Results

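Rsad2, Cmpk2, Isg15, Usp18, Mx1, Mx2, Bst2, Ifi44, Xaf1 and Rtp4 are 10 antiviral effector genes that interferons switch on. They were taken by symbol from the 55276 gene symbols of the deposited tables, and were selected on their measured TPM at 3 days post-injury (dpi), where they were low in Osr1cKO cells, so every value of 3 dpi below is a description without a test. The study sequenced polyadenylated RNA of GFP+ fibro-adipogenic progenitors (FAPs), the interstitial mesenchymal progenitors of skeletal muscle, and asked how loss of the zinc finger transcription factor Osr1 alters them after injury. Cells came from the tibialis anterior of C57Bl6 mice aged 4 to 6 months, injured with a frozen needle. Ctrl mice were Osr1 flox/+ CAGG Cre+ and Osr1cKO (cKO) mice were Osr1 flox/flox CAGG Cre+. Both genotypes thus carried the ubiquitous, tamoxifen-inducible CAGG-CreER transgene and at least 1 recombined Osr1 allele expressing GFP, and both received tamoxifen from the day of injury on. No library came from mice without Cre, tamoxifen or injury. There were 2 libraries per genotype at 3 dpi, each of 1 mouse, and 2 per genotype at 7 dpi, each of 4 pooled mice, so day cannot be told apart from pooling.

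Type I interferons bind the Ifnar1 and Ifnar2 receptor chains, and the kinases Jak1 and Tyk2 then activate transcription factors such as Stat2, which acts with Irf9 in the complex ISGF3. ISGF3 binds interferon-stimulated response elements, built on repeated GAAA tetramers, in the promoters of many genes. Their products block viral entry, replication and release, and some of them feed back on the pathway itself. Fibroblasts respond to interferon and, after sensing foreign or misplaced nucleic acid, also make interferon beta.

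The genes lie on 7 chromosomes of mm10 (GRCm38; GENCODE release M21). Rsad2 (chr12:26442746-26456452, minus strand) and Cmpk2 (chr12:26469204-26479837, plus strand) are neighbours read in opposite directions from start sites 12752 bp apart. Mx1 (chr16:97447035-97462907, minus strand) and Mx2 (chr16:97535308-97560900, plus strand) form a second pair, with start sites 72401 bp apart. Rtp4 (chr16:23520291-23614222, plus strand) lies on the same chromosome. The others are Isg15 (chr4:156199424-156200818, minus strand), Usp18 (chr6:121245906-121270917, plus strand), Bst2 (chr8:71534255-71537456, minus strand), Ifi44 (chr3:151730922-151749960, minus strand) and Xaf1 (chr11:72301629-72313733, plus strand). GENCODE classes Mx2 as a polymorphic pseudogene and the other 9 as protein coding. Usp18 shares 124 exonic bp with Gm44148, a long intergenic RNA of the opposite strand at a mean of 1.86 TPM over the 8 libraries, and Rtp4 shares 296 exonic bp with Gm45338 of the same strand at 0.422 TPM. Whether counting was strand-aware is not given in the sources used here, and reads of these stretches are uncertain, as are reads that Mx1 and Mx2, which are related in sequence, might share.

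RefSeq promoter sequences (GRCm38.p6) were held for 6 of the 10 genes. The 250 bases upstream of each start site were searched for a core of the response element, 2 GAAA tetramers separated by 2 bases of any kind on either strand, where overlapping matches were counted separately. This core was found in 3 of the 6, Rsad2, Isg15 and Bst2, and in 978 of 32851 promoters in all (2.98%). The 140 bases upstream of these start sites are shown because they hold every match of this core, which is in capitals (TTTC is GAAA on the other strand). Each is read 5′ to 3′ on the gene's own strand. They are chr12:26456453-26456592 for Rsad2, chr4:156200819-156200958 for Isg15 and chr8:71537473-71537612 for Bst2, all on the minus strand.
Rsad2: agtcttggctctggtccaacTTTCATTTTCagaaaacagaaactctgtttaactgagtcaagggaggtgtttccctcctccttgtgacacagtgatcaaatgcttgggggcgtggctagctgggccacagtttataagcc
Isg15: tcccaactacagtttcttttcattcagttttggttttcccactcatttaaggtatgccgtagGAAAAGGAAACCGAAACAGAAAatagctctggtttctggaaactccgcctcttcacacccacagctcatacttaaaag
Bst2: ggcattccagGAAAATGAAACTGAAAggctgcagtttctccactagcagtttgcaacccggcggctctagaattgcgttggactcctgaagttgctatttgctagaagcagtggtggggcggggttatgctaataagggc
Rsad2 had 1 match, beginning 120 bases before the start site. Isg15 had 3 overlapping matches, the first beginning 78 bases before it, and Bst2 had 2 overlapping matches, the first beginning 130 bases before it. These are matches of letters, not measured sites, and the searched core was absent from these windows of Cmpk2, Ifi44 and Xaf1.

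Values are TPM, the share of a gene among all transcripts after correction for its length. Between 36516530 and 51096358 fragments on genes were recovered per library, more at 3 dpi than at 7 dpi. Members had between 213 and 33205 fragments in a library. Osr1 itself stood at 105 and 91.0 TPM in Ctrl and 70.7 and 71.9 TPM in cKO at 3 dpi, and at 67.6 and 71.6 TPM in Ctrl and 64.4 and 60.8 TPM in cKO at 7 dpi. This value covers the whole gene, including exon 1, which the recombined allele keeps. The 7 FAP markers summed to between 29950 and 61110 TPM, mostly Col1a1 and Col3a1, and all were detected in every library. Among them Ly6a (Sca-1) was in the order of libraries that the members have at 3 dpi, with 5407 and 4232 TPM in Ctrl and 3058 and 2020 TPM in cKO. It passed the unadjusted threshold given below (log2 difference -0.96, standard error 0.33, and -0.64 without cKO replicate 2). The other FAP markers did not pass it at 3 dpi. Pdgfra, Dcn and Gsn differed by -0.29, -0.42 and -0.49, whereas Lum, Col1a1 and Col3a1 differed by 0.07, 0.41 and 0.48. The 2 cKO libraries of 3 dpi were far apart for the members, and differences at 3 dpi are also given without replicate 2, the lower one. Leaving out replicate 1 instead widened the differences, to a median of -2.61 over the members. Which of the 2 mice is typical cannot be told. Nothing ties replicates to separate litters or days, and at 3 dpi each is a mouse.

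All 10 members were highest in Ctrl at 3 dpi, lower in cKO at 3 dpi and, but for Mx2, lowest on average at 7 dpi. At 3 dpi every one of them fell in the same order of libraries, with Ctrl replicate 1 first, then Ctrl replicate 2, cKO replicate 1 and cKO replicate 2; 7.69% of the 15699 genes tested that day had this order. Both cKO libraries thus lay under both Ctrl libraries for 10 of 10 members, against 18.0% of all genes. Summed over the members, the libraries held 6123, 4970, 3648 and 964 TPM in that order. In bulk RNA, fewer cells expressing a gene and less RNA per cell cannot be told apart.

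**Figure D1:**
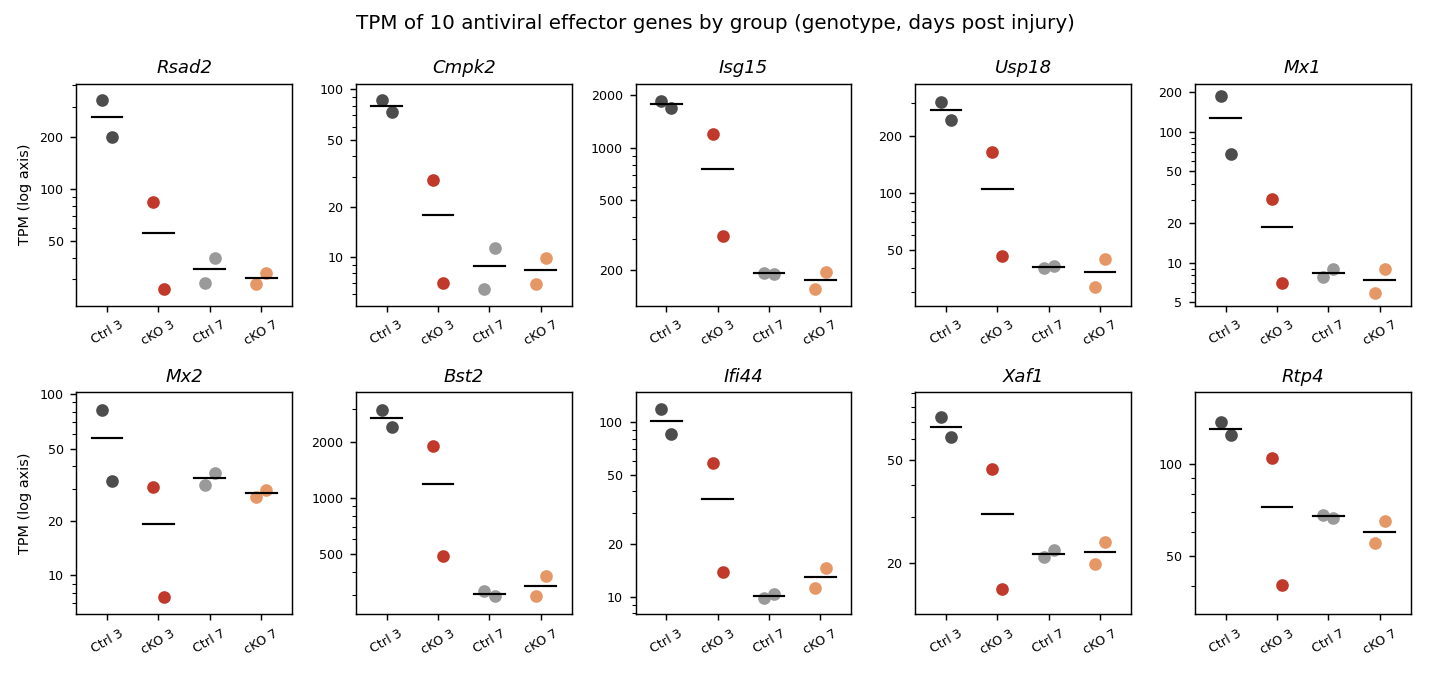
TPM of each of the 10 genes (log axes, a scale of its own for each gene) in Ctrl and cKO FAPs at 3 and 7 dpi. Each point is a library with replicate 1 at the left, and each line is the mean of 2 libraries; all members fall stepwise over the 4 libraries of 3 dpi, and Mx2 alone is as high at 7 dpi as in Ctrl replicate 2 of 3 dpi.

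Rsad2 and Cmpk2 encode enzymes of nucleotide metabolism. Rsad2 encodes viperin, a radical SAM enzyme that turns CTP into ddhCTP, a chain terminator of viral RNA polymerases. It stood at 327 and 199.7 TPM in Ctrl and at 84.6 and 26.4 TPM in cKO at 3 dpi, and at 28.7 and 40.2 TPM in Ctrl and 28.2 and 32.7 TPM in cKO at 7 dpi. Ctrl cells at 3 dpi were well above every other library, and cKO replicate 2 was already under the lowest library of 7 dpi. Cmpk2 encodes a mitochondrial nucleotide kinase that supplies CTP. Its levels at 3 dpi were 86.7 and 73.3 TPM in Ctrl and 28.8 and 6.99 TPM in cKO, and those at 7 dpi were 6.40 and 11.3 TPM in Ctrl and 6.87 and 9.92 TPM in cKO. For both neighbours cKO replicate 1 lay between the Ctrl libraries and the 7 dpi libraries, whereas cKO replicate 2 was under the 7 dpi range for Rsad2 and within it for Cmpk2. On the log2(TPM + 1) scale, the cKO minus Ctrl difference at 3 dpi was -2.42 for Rsad2 (standard error 0.59) and -2.40 for Cmpk2 (standard error 0.63), with n = 2 per group, and -1.58 and -1.43 without cKO replicate 2.

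Isg15 and Usp18 form an opposed pair. Isg15 encodes a ubiquitin-like protein that is joined to other proteins, and Usp18 encodes the protease that takes it off again and that also dampens signalling at Ifnar2. Isg15 stood at 1858 and 1675 TPM in Ctrl and at 1196 and 315 TPM in cKO at 3 dpi. At 7 dpi it stood at 193 and 191 TPM in Ctrl and at 157 and 195 TPM in cKO. All 4 libraries of 3 dpi were above all 4 of 7 dpi, and the cKO replicates of 3 dpi were 3.80-fold apart while the Ctrl replicates were 1.11-fold apart. Usp18 stood at 303 and 244 TPM in Ctrl and at 164 and 46.6 TPM in cKO at 3 dpi. At 7 dpi it stood at 40.3 and 41.0 TPM in Ctrl and at 31.7 and 44.7 TPM in cKO. Its cKO replicate 2 at 3 dpi was just above the highest library of 7 dpi. Differences at 3 dpi were -1.54 for Isg15 (standard error 0.64) and -1.64 for Usp18 (standard error 0.60) on the log2 scale, and -0.55 and -0.72 without cKO replicate 2.

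The genes of the Mx pair differed from each other. They encode dynamin-like GTPases that assemble on viral nucleoproteins, Mx1 in the nucleus and Mx2 in the cytoplasm; C57BL/6 and many other laboratory strains carry mutations in both genes. Mx1 stood at 186 and 67.6 TPM in Ctrl and at 30.6 and 7.00 TPM in cKO at 3 dpi, and at 7.70 and 8.95 TPM in Ctrl and 5.85 and 8.94 TPM in cKO at 7 dpi. Mx1 had the widest genotype difference of the members at 3 dpi, -2.85 on the log2 scale (standard error 0.79, and -1.83 without cKO replicate 2), and also the widest gap between Ctrl replicates, 2.75-fold. Mx2 stood at 81.6 and 33.0 TPM in Ctrl and at 30.7 and 7.61 TPM in cKO at 3 dpi. At 7 dpi it stood at 31.6 and 36.8 TPM in Ctrl and at 27.2 and 29.4 TPM in cKO. Mx2 in Ctrl replicate 2 of 3 dpi lay within the range of the 7 dpi libraries, as did cKO replicate 1, and cKO replicate 2 was the lowest library of all. Its Ctrl and cKO libraries at 3 dpi barely separated, since the lower Ctrl value was 1.08-fold the higher cKO value, and the difference was -1.70 on the log2 scale (standard error 0.74), or -0.73 without cKO replicate 2.

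Bst2 encodes tetherin, a membrane protein that holds budding virus at the cell surface. It was the member at the highest level, with 2952 and 2407 TPM in Ctrl and 1903 and 485 TPM in cKO at 3 dpi. At 7 dpi it stood at 317 and 296 TPM in Ctrl and at 297 and 379 TPM in cKO. Each library of 3 dpi was above each of 7 dpi, also in cKO. Its difference at 3 dpi was -1.49 on the log2 scale (standard error 0.67), or -0.48 without cKO replicate 2.

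Ifi44, Xaf1 and Rtp4 are interferon-inducible genes with other products. Ifi44 encodes a cytoplasmic protein, Xaf1 a binding partner of the apoptosis inhibitor XIAP, and Rtp4 a member of the receptor transporter family. Ifi44 stood at 118 and 85.7 TPM in Ctrl and at 58.3 and 13.9 TPM in cKO at 3 dpi, against 9.87 and 10.4 TPM in Ctrl and 11.2 and 14.6 TPM in cKO at 7 dpi. Xaf1 stood at 72.7 and 61.1 TPM in Ctrl and at 46.0 and 15.8 TPM in cKO at 3 dpi, against 21.0 and 22.3 TPM in Ctrl and 19.8 and 24.1 TPM in cKO at 7 dpi. Ifi44 was the only member with both cKO libraries above both Ctrl libraries at 7 dpi. The share of all genes with cKO above in this way was not counted, so nothing is read from it. Rtp4 stood at 138 and 124 TPM in Ctrl and at 105 and 40.3 TPM in cKO at 3 dpi, against 68.0 and 67.0 TPM in Ctrl and 55.5 and 65.0 TPM in cKO at 7 dpi. Rtp4 had the narrowest difference at 3 dpi, -1.01 on the log2 scale (standard error 0.46), after Xaf1 at -1.29 (standard error 0.50), while Ifi44 was at -1.79 (standard error 0.67). Without cKO replicate 2 these were -0.31 for Rtp4, -0.52 for Xaf1 and -0.77 for Ifi44. For Xaf1 and Rtp4, cKO replicate 2 of 3 dpi was under every library of 7 dpi.

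Over the members, the median log2 difference at 3 dpi was -1.67, where that of all genes tested was -0.01. The study's threshold for 3 dpi, more than 1.2-fold and an unadjusted p under 0.05, was met by 5 of 10 (Rsad2, Cmpk2, Usp18, Mx1 and Ifi44) against 4.07% of all genes, and nothing is read from this count since the contrast chose the members. The count was 2 without Ctrl replicate 1 (2.36% of all genes in that fit), 4 without Ctrl replicate 2 (11.5%), 10 without cKO replicate 1 (3.39%) and 5 without cKO replicate 2 (1.93%). The size of the difference depended on which cKO library was kept: the median was -0.73 without cKO replicate 2 and -2.61 without cKO replicate 1. With 2 mice it cannot be told which is typical. Within cKO, replicate 1 was more than 2-fold above replicate 2 for 10 of 10 members, against 4.35% of all genes, with a median ratio of 3.86. Within Ctrl, replicate 1 was more than 2-fold above replicate 2 for 2 members (Mx1 and Mx2), against 8.78% of all genes, with a median ratio of 1.23. The median ratio of the Ctrl to the cKO mean was 2.71, smaller than the median ratio between the cKO mice.

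The members were not selected on the libraries of 7 dpi, although results of that day were also known when they were listed. In limma at 7 dpi, 0 of 10 members had a Benjamini-Hochberg adjusted p under 0.1 with a fold change over 1.2, the study's threshold for that day, against 0.0483% of 16578 genes; with limma-voom it was 1, Mx2, against 1.91% of all genes in that fit. At an unadjusted p under 0.05 the count was 3 of 10, against 6.04% of all genes. These were Mx2 at -0.40 on the log2 scale (standard error 0.10, adjusted p = 0.289 from limma), Rtp4 at -0.30 (standard error 0.09, adjusted p = 0.307) and Isg15 at -0.27 (standard error 0.10, adjusted p = 0.374). Mx2 and Rtp4 were the 2 members with both cKO libraries under both Ctrl libraries, as were 10.7% of all genes. The other 7 lay between -0.30 for Mx1 (standard error 0.20) and 0.18 for Ifi44 (standard error 0.14), with adjusted p from limma between 0.517 and 0.992. The median over the members was -0.26, where that of all genes was 0.00, and it was -0.04 without cKO replicate 1 and -0.12 on the deposited TPM without further scaling. On that scale 0 of 10 passed the unadjusted threshold, against 2.82% of all genes.

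Between the days, the members' levels were compared within each genotype as a description. In Ctrl, the ratio of 3 to 7 dpi in mean TPM ran from 1.68 for Mx2 and 1.94 for Rtp4 to 10.1 for Ifi44 and 15.2 for Mx1, with a median of 8.20. In cKO it ran from 0.677 for Mx2 to 4.30 for Isg15, with a median of 2.34. The median 7 minus 3 dpi difference on the log2 scale was -2.77 in Ctrl and -0.76 in cKO, against 0.11 and 0.12 over all genes. In cKO this median depended on the mouse: it was -1.75 without replicate 2 and 0.20 without replicate 1. Replicate 1 of cKO at 3 dpi was above all 4 libraries of 7 dpi for 9 members. Replicate 2 was above them for 3 (Isg15, Usp18 and Bst2), within their range for 3 (Cmpk2, Mx1 and Ifi44) and under it for 4 (Rsad2, Mx2, Xaf1 and Rtp4). The share of all genes outside that range was not counted, so these counts only describe where the members lay. A genotype by day interaction over 17371 genes had an adjusted p under 0.05 for 0 genes in limma and an unadjusted p under 0.05 for 1193. The members were among these genes, and since the libraries of 3 dpi had chosen them, nothing is read from their interaction terms.

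**Figure D2:**
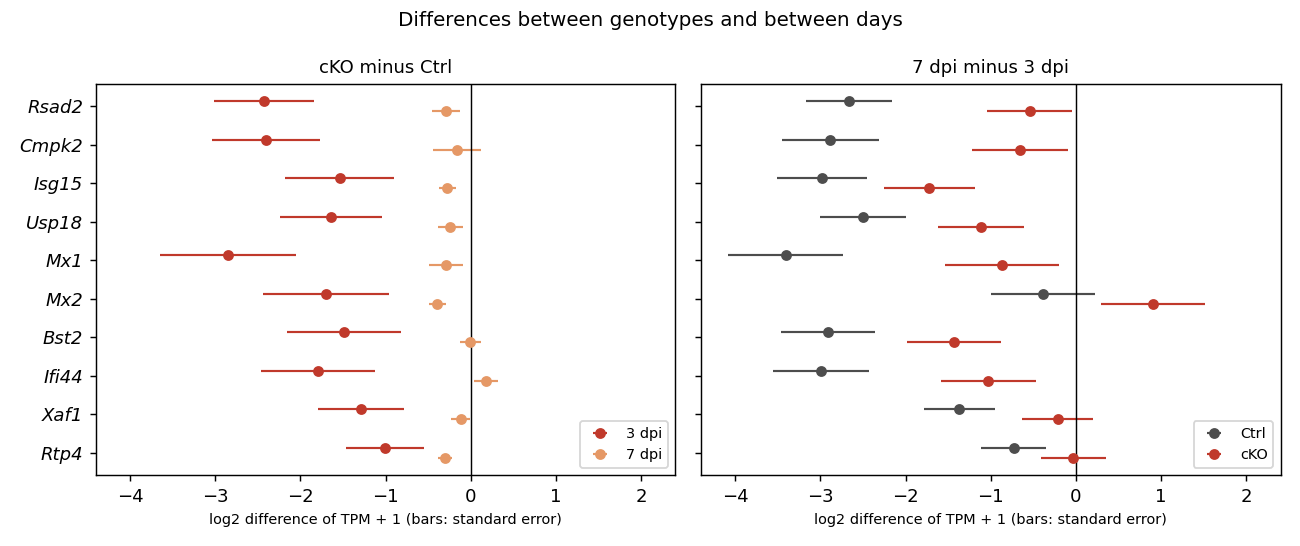
Log2 differences of TPM + 1 with standard errors for the 10 genes, between genotypes at each day (left) and between days in each genotype (right), from limma with 2 libraries per group. Differences between genotypes run from -2.85 to -1.01 at 3 dpi and from -0.40 to 0.18 at 7 dpi, and Mx2 alone lies above 0 for cKO between the days.

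The members moved together over the 8 libraries, which share 2 days and 2 genotypes, so that the high values of Ctrl at 3 dpi weigh most. Pearson correlation of each gene's log2 level with the mean of the standardized members was between 0.950 and 0.995 for 9 of them and 0.665 for Mx2. The closest pair was Isg15 and Bst2 (0.997) and the most distant Isg15 and Mx2 (0.408). Among 10404 other genes with a mean of at least 5 TPM, the 8 most like the members' mean were Irf7, Phf11b, Trim30a, Ifi47, Igtp, Gbp3, Sp100 and Sp110, with correlations between 0.994 and 0.999. Irf7, the transcription factor that amplifies interferon production, stood at 872 and 528 TPM in Ctrl and at 384 and 87.8 TPM in cKO at 3 dpi, and between 102 and 124 TPM at 7 dpi.

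The other genes of the pathway were taken as lists by role. In these lists, called lower or higher means past the unadjusted threshold, against 4.07% of all genes called lower and 2.21% called higher at 3 dpi, or 1.93% called lower without cKO replicate 2, and 6.04% called lower at 7 dpi. Of 20 interferon ligand genes, Ifnb1 and Ifna4 passed the filter at 3 dpi and none at 7 dpi. Ifnb1, interferon beta, had 15.6 and 10.9 TPM in Ctrl and 4.43 and 1.02 TPM in cKO at 3 dpi, from 146, 104, 42 and 10 fragments. It had between 0.277 and 0.693 TPM at 7 dpi, from 2 to 5 fragments. Ifna4 had 5.87 and 4.34 TPM in Ctrl and 1.83 and 0.408 TPM in cKO at 3 dpi, from 41, 31, 13 and 3 fragments, and at most 2 fragments in a library at 7 dpi; close copies in the interferon alpha cluster make its value uncertain. Both ligands were in the order of libraries seen for the members, with log2 differences of -2.10 (standard error 0.52) and -1.61 (standard error 0.39). Without cKO replicate 2 these were -1.37 and -1.09. Ifna4 passed the filter only through its Ctrl libraries, and Ifnb1 in cKO replicate 2 was at the minimum of 10 fragments. Nothing is therefore read from both being called lower. Ifnab and Ifna7 had under 1 TPM in every library.

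Receptors, kinases and STATs carry the signal from the ligands to the nucleus. Of 11 receptor and JAK-STAT genes tested, 1 was called lower at 3 dpi, namely Stat2, with a median log2 difference of -0.20 over the list, and 0 without cKO replicate 2 (median -0.21). At 7 dpi 3 were called lower, Stat2, Jak2 and Irf9 (the last named after its value was seen), with a median of -0.14. Stat2, a subunit of ISGF3, had 210 and 123 TPM in Ctrl and 98.6 and 35.6 TPM in cKO at 3 dpi (log2 difference -1.44, standard error 0.54, and -0.70 without cKO replicate 2) and 82.1 and 95.1 TPM against 66.2 and 83.5 TPM at 7 dpi. The kinases Jak1 and Jak2 and the receptor chain Ifngr1 differed by -0.12, -0.32 and -0.50 at 3 dpi, with standard errors of 0.13, 0.29 and 0.22. Of 11 nucleic acid sensors and adaptors, 7 were called lower at 3 dpi (median -0.99), or 4 without cKO replicate 2 (median -0.58), and 1 at 7 dpi (median -0.09), the RNA sensor gene Ifih1, likewise named afterwards. Zbp1, a sensor of Z-form nucleic acid, had 364 and 332 TPM in Ctrl and 231 and 74.3 TPM in cKO at 3 dpi, whereas Tmem173, which encodes STING, had 149 and 176 TPM in Ctrl and 159 and 141 TPM in cKO. Ddx58, which encodes the RNA sensor RIG-I, differed by -0.95 (standard error 0.35), or -0.44 without cKO replicate 2. Of 8 negative regulators, 1 was called lower at 3 dpi, Socs1 (median -0.09), or 0 without cKO replicate 2, and 2 at 7 dpi, Socs3 and the phosphatase gene Ptpn6, the latter named after its value was seen (median -0.12). Those of highest level were Socs3, Ptpn11, Ptpn1 and Socs1, at -0.39, -0.01, 0.08 and -0.40 at 3 dpi with standard errors of 0.33, 0.11, 0.14 and 0.16.

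**Figure D3:**
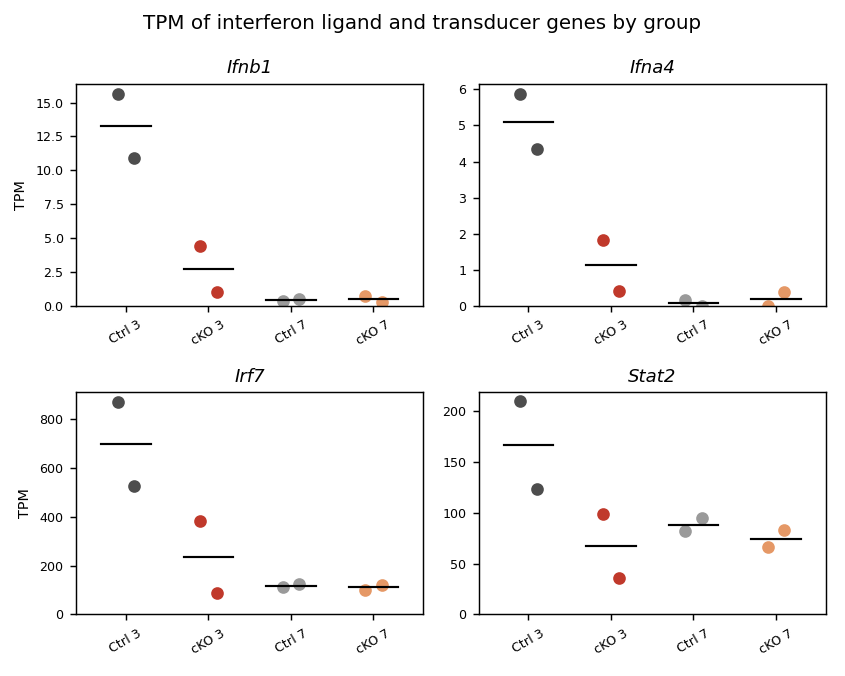
TPM (linear axes from 0) of the ligand genes Ifnb1 and Ifna4 and of the transcription factor genes Irf7 and Stat2 in each library, with group means as lines. At 3 dpi Ifnb1 falls from 15.6 to 1.02 TPM and Irf7 from 872 to 87.8 TPM over the libraries, and at 7 dpi both ligands are near 0 in both genotypes.

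The enzymes that join ISG15 to its targets form a list of 4. All 4 were called lower at 3 dpi, with a median of -1.24, or 3 without cKO replicate 2, with a median of -0.78, and 1 of 4 at 7 dpi, with a median of -0.26. Uba7, the activating enzyme, had 67.8 and 46.6 TPM in Ctrl and 31.2 and 14.2 TPM in cKO at 3 dpi. Ube2l6, the conjugating enzyme, had 334 and 250.1 TPM in Ctrl and 168 and 92.1 TPM in cKO. The ligases Herc6 and Trim25 differed by -1.26 (standard error 0.36) and -1.11 (standard error 0.32) at 3 dpi, or by -0.80 and -0.74 without cKO replicate 2, and Trim25 differed by -0.43 at 7 dpi (standard error 0.08, adjusted p = 0.225 from limma).

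Of 33 further antiviral effectors tested, 28 were called lower and 1 higher at 3 dpi (median -1.26), and 11 were called lower at 7 dpi (median -0.17). Without cKO replicate 2, 18 were called lower and 0 higher at 3 dpi (median -0.77). Ifit3, which binds foreign RNA with its partners, had 961 and 818 TPM in Ctrl and 423 and 105 TPM in cKO at 3 dpi. Ifitm3, a block to viral entry at the highest level of this list, had 7489 and 6952 TPM in Ctrl and 5957 and 4113 TPM in cKO (log2 difference -0.56, standard error 0.34, and -0.27 without cKO replicate 2), while its relative Ifitm2 differed by -0.17 (standard error 0.20) and Ifi27l2a by -1.22 (standard error 0.62, and -0.28 without cKO replicate 2). The 1 higher gene was Ifi27, named after its value was seen, at 1.26 on the log2 scale (standard error 0.47, and 0.72 without cKO replicate 2). Of 12 genes of the interferon gamma response tested at 3 dpi, 8 were called lower (median -1.33), or 7 without cKO replicate 2 (median -0.69), and of 13 tested at 7 dpi, 6 were called lower (median -0.20). Cxcl9, a chemokine for activated T cells, was the 1 that passed the adjusted threshold of 7 dpi, at 118 and 112 TPM in Ctrl and 56.4 and 60.7 TPM in cKO (log2 difference -1.10, standard error 0.07, adjusted p = 0.0913 from limma). It did not pass without further scaling (adjusted p = 0.101), with no filter on low values (0.401), with a mean TPM of at least 1 (0.118) or in the fit on all 8 libraries (0.81), and its adjusted p was 0.00302 with limma-voom. Gbp2, Igtp and Irf1 differed by -1.49, -1.62 and -0.75 at 3 dpi, with standard errors of 0.42, 0.54 and 0.32, or by -0.90, -0.82 and -0.40 without cKO replicate 2. Igtp was also among the genes most like the members' mean. The list is thus not separate from the members' pattern, and a response to interferon gamma itself was not tested.

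**Figure D4:**
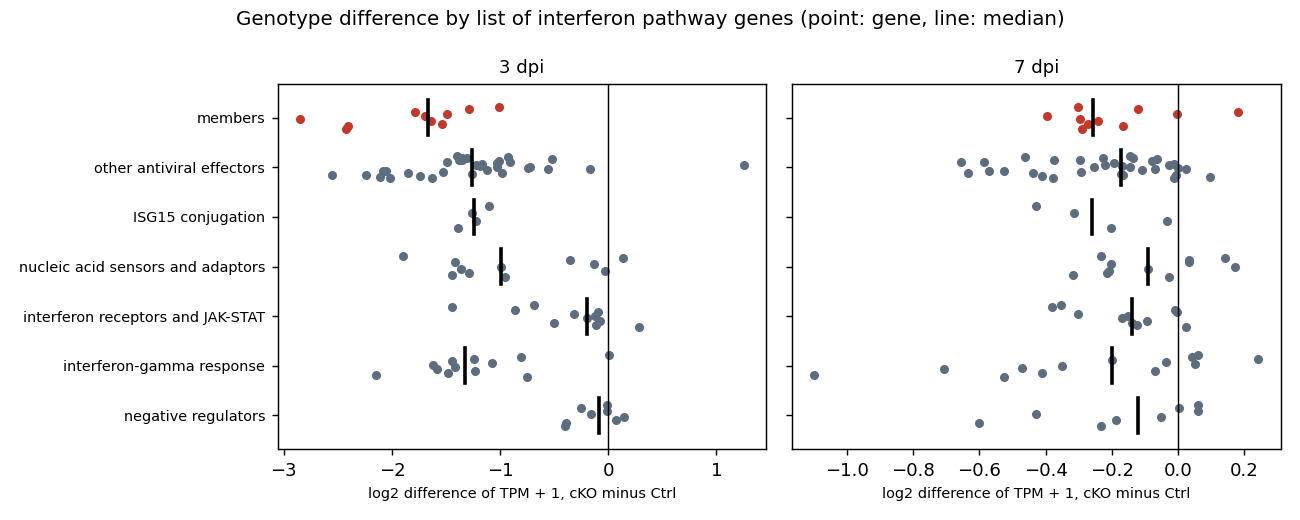
Log2 difference of TPM + 1, cKO minus Ctrl, at 3 dpi (left) and 7 dpi (right; a narrower axis) for each tested gene of 7 lists, with the median of each list as a line. Medians at 3 dpi are -1.67 for the members and -1.26 for other antiviral effectors against -0.20 for receptors and JAK-STAT and -0.09 for negative regulators, and at 7 dpi they lie between -0.26 and -0.09.

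Markers of other cells were summed by list in each library, and single markers named here were chosen after their values were seen. The 10 macrophage and monocyte markers summed to 20.9 and 19.4 TPM in Ctrl and 20.6 and 11.4 TPM in cKO at 3 dpi and to between 43.5 and 66.3 TPM at 7 dpi, and Ptprc (CD45) was at or under 0.216 TPM in all 8 libraries. Among the 4 libraries of 3 dpi the lowest sum was in cKO replicate 2, as for the members, but the markers in it differed. Cd68 was in the members' order (15.4, 8.38, 7.42 and 6.87 TPM), whereas Lyz2 was not (2.93, 6.93, 8.47 and 2.55 TPM). Csf1r rose over these libraries, from 0.528 TPM in Ctrl replicate 1 to 1.03 TPM in cKO replicate 2. The 3 plasmacytoid dendritic cell markers summed to at most 0.603 TPM at 3 dpi, with Siglech listed at 0 in 3 of those 4 libraries, and the 4 neutrophil markers to at most 3.6 TPM. The 8 lymphoid and 5 endothelial markers, at 11.8 and 44.4 TPM, were highest at 3 dpi in Ctrl replicate 1, the library with the highest members, and lay between 4.36 and 5.38 TPM and between 17.2 and 21.2 TPM in the other 3. Kdr and Tek, at 16.8 and 25.4 TPM, made up most of that endothelial sum. Pecam1, Cdh5 and Emcn were at 1.19, 0.822 and 0.104 TPM there, against 1.10, 1.12 and 0.160 TPM in Ctrl replicate 2. Cd79a made up most of the lymphoid sum at 3 dpi, between 4.18 and 11.3 TPM, while Cd3e, Cd3g, Cd8a, Ncr1 and Nkg7 were listed at 0 in all 4 libraries of that day and Cd4 was at or under 0.438 TPM. At 7 dpi the lymphoid sum was between 8.60 and 16.0 TPM, with Cd3e at 4.28 TPM in Ctrl replicate 1, and the endothelial sum between 46.0 and 71.2 TPM. The 6 genes of dissociation stress summed to 4585 and 6288 TPM in Ctrl and 5946 and 3981 TPM in cKO at 3 dpi. The part of these cells and of dissociation in the members' values was not tested.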

How the data were processed

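RNA of sorted GFP+ FAPs was sequenced in 8 libraries, with 2 per genotype and day. The authors used STAR with mm10 and DESeq2, and deposited 1 table per library with TPM per gene symbol; the counter, its annotation and its strand setting are not given in the sources used here. The methods and the labels differ on the sequencing instrument. Which libraries ran on which instrument is not settled, so it is not known whether instrument goes with day. Of 55385 entries, 109 that repeated a symbol were left out. With GENCODE M21 exon lengths, between 98.7% and 98.9% of values under 50 fragments were within 0.02 of a whole number, which gave the depth; 1995 symbols had no length. Libraries were put on 1 scale with the trimmed mean (30%) of log ratios, and genes with at least 10 fragments in 2 libraries and 15 in all were kept (a mean of 1 TPM where no length was known); all 10 members passed at both days. log2(TPM + 1), which understates changes of low genes, was fitted with limma 3.58.1 (R 4.3.3, lmFit and eBayes with trend). Fits were made within each day, and over all 8 libraries for the days. The code was run on simulated data with 1 dispersion for all genes, which does not check the fit at the spread seen here. Symbols, sums and motifs were handled in Python 3.11.15 with pandas 2.3.3 and NumPy 2.4.6, and figures drawn with matplotlib 3.10.9.

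The members and all gene lists were chosen with earlier results of these data known, also those of 7 dpi, so no count here is independent support. Named genes were the members, Osr1, the 8 genes most correlated with the members' mean, the 4 of highest mean TPM in each pathway list and every gene of lists under 5. Marker lists are given as sums, with the FAP markers and a few other single markers named after their values were seen. Alternatives were other scaling, pseudocount and filters, limma-voom, a replicate block, a fit on all libraries and leaving out each library. Reads and exons were not analysed here, and 2 results are not reported here.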

Additional observations from a re-analysis of the deposited data

How the results depend on the processing

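All 10 members stayed lower in cKO at 3 dpi under each of the 12 alternatives, with medians from -2.61 to -0.73 over the fits that omit a library. Their sign says nothing about stability, since the members were selected as low in cKO on that day. Both cKO libraries lay under both Ctrl libraries for each member, so omitting a library could not turn a sign on the deposited TPM. With 2 libraries per group, the counts past a threshold were not stable. Members called lower at 3 dpi (5) were 3 with no filter on low values, 10 in the fit on all 8 libraries, and 2 to 10 with a library left out. All genes called lower at 3 dpi (639) were 1008 in the fit on all 8 libraries and between 296 and 1760 with a library left out. Members lower at 7 dpi by unadjusted p (3) were 0 without further scaling, 0 in the fit on all 8 libraries, and between 1 and 5 with a library left out. By adjusted p, limma-voom gave 1 member in place of 0. All genes lower at 7 dpi by adjusted p (8) were 0 without further scaling, 0 with no filter, 0 with a mean TPM of at least 1, 0 in the fit on all 8 libraries, 313 with limma-voom, and between 10 and 280 with a library left out. By unadjusted p (1001) they were 468 without further scaling, 589 in the fit on all 8 libraries, and between 653 and 1181 with a library left out. The members' median at 7 dpi was between -0.379 and -0.0402 with a library left out, and the 7 minus 3 dpi median in cKO between -1.75 and 0.20.

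At 7 dpi the sign turned for Bst2 without further scaling (0.13), in the fit on all 8 libraries (0.00389), without Ctrl replicate 1 (0.05) and without cKO replicate 1 (0.14); for Xaf1 without further scaling (0.0118); and for Cmpk2 without Ctrl replicate 2 (0.20) and without cKO replicate 1 (0.05). With a library left out, the value of Bst2 ranged from -0.149 to 0.144 and that of Cmpk2 from -0.531 to 0.202. The cause was not tested.

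Replicate numbers are shared between the genotypes. Over all genes tested, same-numbered libraries did not deviate together (correlation -0.128 at 3 dpi and 0.0611 at 7 dpi). The order of libraries given above puts replicate 1 above replicate 2 in both genotypes at 3 dpi for 10 of 10 members. The share of all genes with this was not counted. The members also moved together and were selected on that day, so nothing about pairing is read from it. Whether same-numbered libraries share more than a number is not known. With a replicate block, 10 members and 666 genes in all were called lower at 3 dpi, and 0 members and 3 genes at 7 dpi by adjusted p. A crossed replicate block at 3 dpi, chosen after seeing the data, gave 7 members and 795 genes. Each replicate number holds both genotypes on each day, so a replicate block cannot change a log2 difference, and the signs under it are no check.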
